A study of Homo sapiens with 4 samples.

Results

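The genes described here are those of the proteasome: the subunits of the core particle, of its immune variant and of the regulatory cap, the activators and inhibitor that bind the core, the assembly chaperones, and NFE2L1, a transcription factor of proteasome genes. They were chosen by symbol, as every gene named PSMA to PSMG with a number together with ADRM1, POMP and NFE2L1, with no pseudogenes. The name table held 51 such symbols, and 49 of them had values among the 29286 genes measured. PSMA8, a testis subunit, and PSMB11, a thymus subunit, were not analysed here. The level of each gene was measured by RNA sequencing in HCT116, a human line from a colorectal carcinoma. Cells in the knockdown group had received a lentiviral hairpin against WDR43, a nucleolar protein of ribosome assembly (shWDR43, 2 libraries), and cells in the control group a non-targeting control hairpin (shNC in the treatment labels, shNC2 in the sample titles, 2 libraries). All 4 libraries came from cells kept under puromycin for 3 days after 48 h of infection, so the controls carry the vector and the drug as well. The labels give no hairpin sequence and do not say whether replicates were separate cultures, so the p-values reflect the spread of these libraries alone, which may be technical. The level of WDR43 itself was not analysed here, and the labels were not checked against it.

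The proteasome degrades proteins tagged with ubiquitin. Its barrel-shaped core is a stack of alpha and beta rings with the active sites inside, and a cap of ATPase and non-ATPase subunits recognises, unfolds and feeds in the substrate. Immune cells and interferon-treated cells swap the active beta subunits for immune counterparts, whose products are well suited to antigen presentation. When proteasome activity falls short, NFE2L1 is cut free from the endoplasmic reticulum and raises the transcription of subunit genes together. Dividing cancer cells rely on the proteasome to turn over cyclins and p53.

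The deposited values were read as FPKM, fragments scaled by transcript length and mapped total, a unit inferred from the values, so levels can be set side by side between genes. They summed to 411816 and 402393 in shWDR43 replicates 1 and 2 and to 393582 and 413758 in shNC replicates 1 and 2. The read depth is unknown. Of the markers of the line, 5 epithelial genes (EPCAM, CDH1, KRT8, KRT18 and KRT19) were between 28.9 and 991 FPKM. PECAM1 of endothelium stayed between 0.0566 and 0.128 FPKM, and COL1A1, a collagen gene of fibroblasts, was at 5.69 to 7.80 FPKM. The leukocyte genes PTPRC and CD3E and the intestinal gene CDX1 were not analysed here. Genes of the mitochondrial genome held 24.6% and 23.9% of the FPKM sum in shWDR43 and 26.8% and 25.5% in shNC. The part of this share in the results below was not tested.

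Proteasome genes were moderately higher in cells with the WDR43 hairpin. Summed over the 49 genes, their level was 2042 and 1993 FPKM in shWDR43 replicates 1 and 2, against 1564 and 1779 FPKM in shNC replicates 1 and 2, a ratio of 1.21. As a share of all FPKM this was 0.496% and 0.495% in shWDR43 and 0.397% and 0.430% in shNC. Both knockdown libraries lay above both controls, and the controls differed from each other more than the knockdown libraries did. In bulk RNA, a change in the mix of cells and a change in RNA per cell cannot be told apart.

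Of 48 proteasome genes that reached 1 FPKM in at least 2 libraries, 13 rose and 0 fell with an adjusted p under 0.05, from limma fitted to log2(FPKM + 1) with Benjamini-Hochberg adjustment over all 13303 such genes. Over all tested genes 4.79% were called higher and 1.47% lower. At an unadjusted p below 0.05, 28 proteasome genes were higher, against 17.8% of all tested genes, and 1, PSMD5, was lower, against 8.63% of all tested genes. The genes that rose did so by 0.35 to 0.64 in log2(FPKM + 1), with adjusted p between 0.0204 and 0.0484. Their ratios of mean FPKM, without the added 1, ran from 1.28 to 1.85. The upper ends belong to different genes: POMP had a log2 difference of 0.64 and a ratio of 1.57, and PSMB10 had 0.62 and 1.85. The median log2 difference was 0.29 over the 48 genes and 0.05 over all tested genes. Leaving out shNC replicate 1 brought the median of the 48 genes to 0.15 (0.06 over all tested genes), and leaving out any other library to between 0.25 and 0.35. In 37 of the 48 both shWDR43 libraries were above both shNC libraries, in 3 both were below and in 8 the groups overlapped, while 35.8% of all tested genes were higher without overlap and 21.5% lower. For any 1 gene, the smallest p an exact two-sided permutation test allows with 2 libraries a group is 0.333.

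The count of proteasome genes that rose depended on the library left out and on scaling. It was 3 without shWDR43 replicate 1, 6 without shWDR43 replicate 2, 17 without shNC replicate 1 and 30 without shNC replicate 2, where 1.94%, 2.45%, 9.17% and 13.5% of all tested genes were called higher. Median-ratio scaling left 2 (PSMB3 and PSMB10) and upper-quartile scaling 4 (PSMB3, PSMB10, PSMA2 and PSMD13), with 2.19% and 2.46% of all tested genes called higher. Over all tested genes the calls were 637 higher and 196 lower as deposited, 292 and 231 after median-ratio scaling, and 327 and 287 after upper-quartile scaling. With the replicate number as a block 6 proteasome genes rose, against 3.1% of all tested genes, and with the numbers crossed 24 rose, against 10.3%, and 1 fell, against 4.35%. With no filter on low values 0 of 49 passed, against 0.0557% of 26938 genes. Each of the 13 genes was called with a pseudocount of 0.1 (4.66% of all tested genes higher), and 11 with robust settings off (4.19% higher). At a filter of 5 FPKM 12 of the 12 tested were called. At that filter 13 of 45 proteasome genes were called higher, against 9.34% of 8428 genes. The direction of the 13 genes was the same under each of these alternatives in which they were tested.

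**Figure D1:**
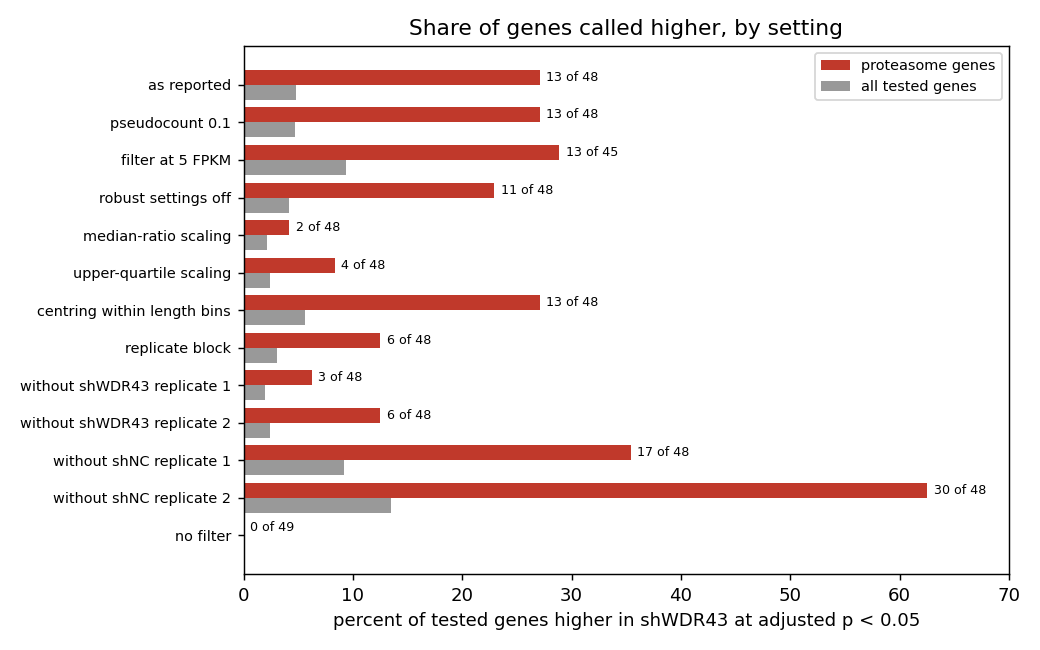
Percent of tested genes that were higher in shWDR43 at an adjusted p below 0.05, for proteasome genes (red) and all tested genes (grey), as reported and under 12 other settings, with the count of proteasome genes printed at each bar. The red bar is longer than the grey bar in every setting other than no filter, where 0 of 49 proteasome genes were called, and its length runs from 2 of 48 after median-ratio scaling to 30 of 48 without shNC replicate 2.

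The controls themselves differed in these genes. Between the groups, the median log2 difference of the 48 genes was 0.37 for shWDR43 replicate 1 against shNC replicate 1, 0.30 for shWDR43 replicate 2 against shNC replicate 1, 0.18 for shWDR43 replicate 1 against shNC replicate 2 and 0.16 for shWDR43 replicate 2 against shNC replicate 2. Within the groups it was 0.03 for shWDR43 replicate 1 against replicate 2 and 0.15 for shNC replicate 2 against replicate 1. The gap between the controls was thus close to the smaller gaps between the groups. Over all tested genes the median was -0.01 for shNC replicate 2 against replicate 1. It was 0.06 for either shWDR43 library against shNC replicate 2, and 0.04 for either against shNC replicate 1. Of the 48 genes, 41 were higher in shNC replicate 2 than in shNC replicate 1. Against shNC replicate 2, 41 were higher in shWDR43 replicate 1 and 39 in shWDR43 replicate 2. Against shNC replicate 1, these counts were 43 and 44. Such counts over all tested genes were not made.

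**Figure D2:**
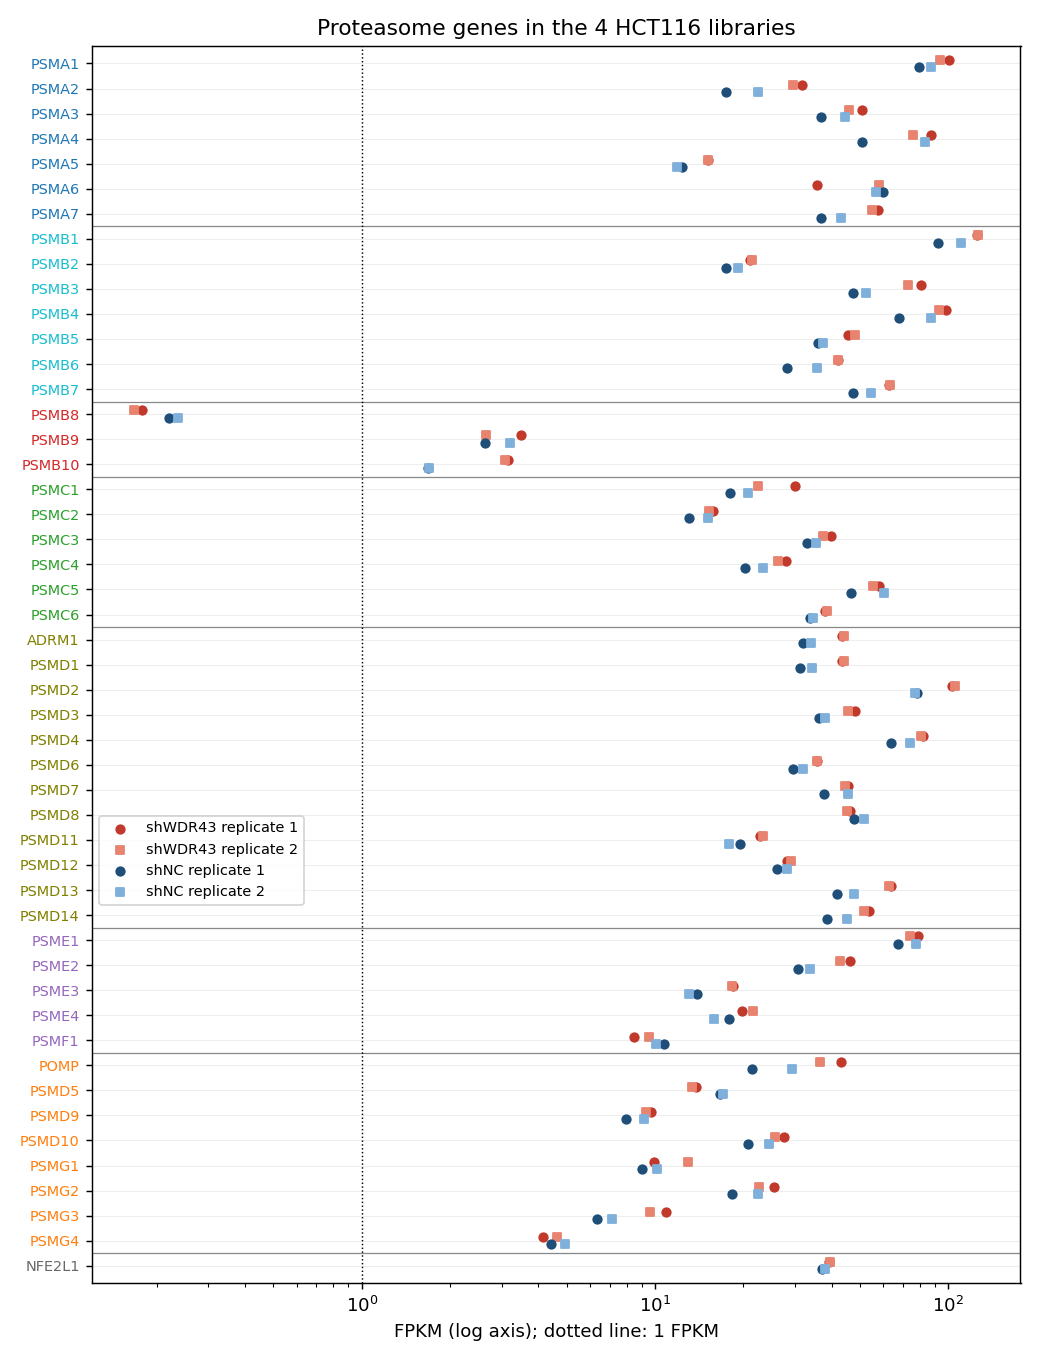
Level in FPKM (log axis) of the 49 proteasome genes in each library, with shWDR43 in red above shNC in blue, circles for replicate 1 and squares for replicate 2, and label colours for the role (alpha ring, beta ring, immune subunits, ATPases, other cap subunits, activators and inhibitor, assembly, NFE2L1, from top to bottom). Most red points lie right of the blue points of the same gene, the immune subunits lie below 4 FPKM, and shNC replicate 1 is often leftmost.

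The alpha ring of the core forms the gate through which substrates enter. PSMA2, an alpha subunit, was at 31.6 and 29.6 FPKM in shWDR43 and at 17.5 and 22.5 FPKM in shNC. It rose by 0.60 ± 0.12 (log2 difference ± SE; adjusted p = 0.0347), the largest difference among alpha subunits. PSMA7, another alpha subunit, was at 57.8 and 54.8 FPKM in shWDR43 and at 36.8 and 43.0 FPKM in shNC, a log2 difference of 0.49 ± 0.10 (adjusted p = 0.0344). The groups did not overlap for either gene, and shNC replicate 1 was the lowest library for both. The highest alpha subunit, PSMA1, was at 100.1 and 93.9 FPKM in shWDR43 and at 79.5 and 87.6 FPKM in shNC, with a log2 difference of 0.21 short of the threshold (adjusted p = 0.183). In all, 2 of 7 alpha subunits rose and 0 fell, against 4.79% and 1.47% of all tested genes. The median log2 difference of the alpha subunits was 0.30, and their summed level was 378 and 373 FPKM in shWDR43 and 294 and 349.6 FPKM in shNC.

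A pair of alpha subunits stood apart through a single library and were singled out after their values were seen. PSMA6 was at 35.5 and 58.2 FPKM in shWDR43 and at 60.0 and 56.8 FPKM in shNC, so only shWDR43 replicate 1 was low. Its log2 difference was -0.35 (adjusted p = 0.295, not passing), but PSMA6 was called lower without shWDR43 replicate 2, as were 1.01% of all tested genes. PSMA4 was at 87.4 and 76.0 FPKM in shWDR43 and at 50.7 and 83.4 FPKM in shNC, so only shNC replicate 1 was low (adjusted p = 0.354), and without that library its log2 difference was -0.03. Another annotated gene, AL121594.1, overlaps PSMA6 on the same strand, and reads there cannot be assigned with certainty.

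The beta ring carries the proteolytic sites. PSMB3, a beta subunit without an active site of its own (chromosome 17, 38752736 to 38764231 in GENCODE release 29 of GRCh38), was at 80.7 and 72.9 FPKM in shWDR43 and at 47.2 and 52.4 FPKM in shNC. This was the smallest p of any proteasome gene, with a log2 difference of 0.62 ± 0.09 and an adjusted p of 0.0204. PSMB5, which carries the chymotrypsin-like site that proteasome inhibitor drugs bind (chromosome 14, 23016543 to 23035230), was at 45.7 and 48.2 FPKM in shWDR43 and at 36.0 and 37.4 FPKM in shNC. Its log2 difference was 0.35 ± 0.08 (adjusted p = 0.0484), close to the threshold. PSMB6 and PSMB7, which carry the caspase-like and trypsin-like sites, had log2 differences of 0.40 (adjusted p = 0.0807) and 0.31 (adjusted p = 0.0882). PSMB1, the highest of all proteasome genes, was at 125 and 127 FPKM in shWDR43 and at 92.6 and 111 FPKM in shNC (adjusted p = 0.114). In the beta ring 7 of 7 genes had non-overlapping groups with shWDR43 higher, the only role group of more than 3 genes where all did. The same held for 10 of 12 non-ATPase cap genes, 5 of 6 ATPase genes and 35.8% of all tested genes. By the test 2 of 7 beta genes rose, against 4.79% of all tested genes. The summed level of the beta ring was 476 and 467 FPKM in shWDR43 and 336 and 397 FPKM in shNC, a ratio of 1.29, with a median log2 difference of 0.31.

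The immune subunits were far below their constitutive counterparts in all libraries. PSMB10, the counterpart of PSMB7 (chromosome 16, 67934502 to 67937087), was at 3.16 and 3.09 FPKM in shWDR43 and at 1.68 and 1.69 FPKM in shNC. Replicates lay close together, and the log2 difference of 0.62 ± 0.12 passed (adjusted p = 0.0317), a ratio of means of 1.85. PSMB9, the counterpart of PSMB6, was at 3.49 and 2.65 FPKM in shWDR43 and at 2.63 and 3.21 FPKM in shNC. Its groups overlapped, with a log2 difference of 0.05 ± 0.14 (adjusted p = 0.857) that was negative after upper-quartile scaling and without shWDR43 replicate 1 or shNC replicate 1. PSMB8, the counterpart of PSMB5, was at 0.178 and 0.168 FPKM in shWDR43 and at 0.220 and 0.237 FPKM in shNC, below the level at which genes were tested. Of the immune subunits PSMB10 alone passed, PSMB8 had lower values in both shWDR43 libraries, and whether the shifts of these genes differ was not tested.

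Set against the constitutive subunit that it replaces, PSMB10 was at 5.02% and 4.90% of PSMB7 in shWDR43 and at 3.56% and 3.11% in shNC. PSMB9 was at 8.30% and 6.29% of PSMB6 in shWDR43 and at 9.32% and 8.98% in shNC. PSMB8 was at 0.390% and 0.348% of PSMB5 in shWDR43 and at 0.612% and 0.634% in shNC. By this measure of FPKM within a library, PSMB10 took a larger share in both knockdown libraries, while PSMB9 and PSMB8 took a smaller share. The level of PSMB9 itself overlapped between the groups. PSMB6, to which it was compared, was at 42.0 and 42.1 FPKM in shWDR43 and at 28.2 and 35.7 FPKM in shNC. PSMB8 overlaps PSMB9, and PSMB9 overlaps TAP1, with both pairs on opposite strands. No source used here states a strand setting, and the low values of PSMB8 and PSMB9 are uncertain.

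The cap has a ring of ATPases that unfolds substrates. None of the 6 ATPase genes passed the test with limma. All had a positive log2 difference, as did 58.0% of all tested genes. At an unadjusted p below 0.05, 2 were higher, against 17.8% of all tested genes. The largest difference was that of PSMC1, at 30.1 and 22.4 FPKM in shWDR43 and at 18.0 and 20.7 FPKM in shNC, a log2 difference of 0.41 ± 0.14 (adjusted p = 0.120). Its shWDR43 replicate 1 was well above the other libraries. Without that library PSMC1 was at 0.20, and without shWDR43 replicate 2 it was at 0.62 and passed (adjusted p = 0.00991 with limma). PSMC5, the highest ATPase gene, was at 58.0 and 55.5 FPKM in shWDR43 and at 46.5 and 60.2 FPKM in shNC, and its groups overlapped (log2 difference 0.10, adjusted p = 0.650). Without shNC replicate 1 the PSMC5 difference was -0.08. The median log2 difference of the ATPases was 0.17, and a difference between role groups was not tested.

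The non-ATPase subunits of the cap include the scaffold, the ubiquitin receptors and the lid with its deubiquitinase. Of 12 such genes 4 rose and 0 fell, against 4.79% and 1.47% of all tested genes, with a median log2 difference of 0.31. PSMD2, a large scaffold subunit (chromosome 3, 184298709 to 184309054) and the highest of these genes, was at 103 and 106 FPKM in shWDR43 and at 78.0 and 77.0 FPKM in shNC. Its replicates were close, and it rose by 0.42 ± 0.08 (adjusted p = 0.0326). After median-ratio and upper-quartile scaling PSMD2 was not called (adjusted p = 0.0562 and 0.0501 with limma). PSMD1, the other large scaffold subunit, was at 43.5 and 44.0 FPKM in shWDR43 and at 31.3 and 34.3 FPKM in shNC (log2 difference 0.41 ± 0.08, adjusted p = 0.0360).

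ADRM1, a ubiquitin receptor of the cap, was at 43.5 and 44.1 FPKM in shWDR43 and at 31.9 and 34.0 FPKM in shNC (log2 difference 0.40 ± 0.08, adjusted p = 0.0345). PSMD13, a lid subunit, was at 63.5 and 62.5 FPKM in shWDR43 and at 41.6 and 47.6 FPKM in shNC, the largest difference of the cap at 0.49 ± 0.09 (adjusted p = 0.0310). For the genes of the cap that rose, the replicates of shWDR43 lay close together, and no shNC library reached a shWDR43 library. The lid subunit PSMD3 was just outside the threshold at 0.32 ± 0.08 (adjusted p = 0.0583 with limma). Next came PSMD11, another non-ATPase gene, at 0.29 ± 0.09 (adjusted p = 0.0822), and PSMD14, the deubiquitinase of the lid, at 0.32 ± 0.10 (adjusted p = 0.0832). PSMD8, another lid subunit, was the only cap gene with a negative log2 difference, at 46.3 and 45.0 FPKM in shWDR43 and at 47.9 and 51.6 FPKM in shNC (adjusted p = 0.385). PSMD3, PSMD11, PSMD14 and PSMD8 are named here after their values were seen.

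**Figure D3:**
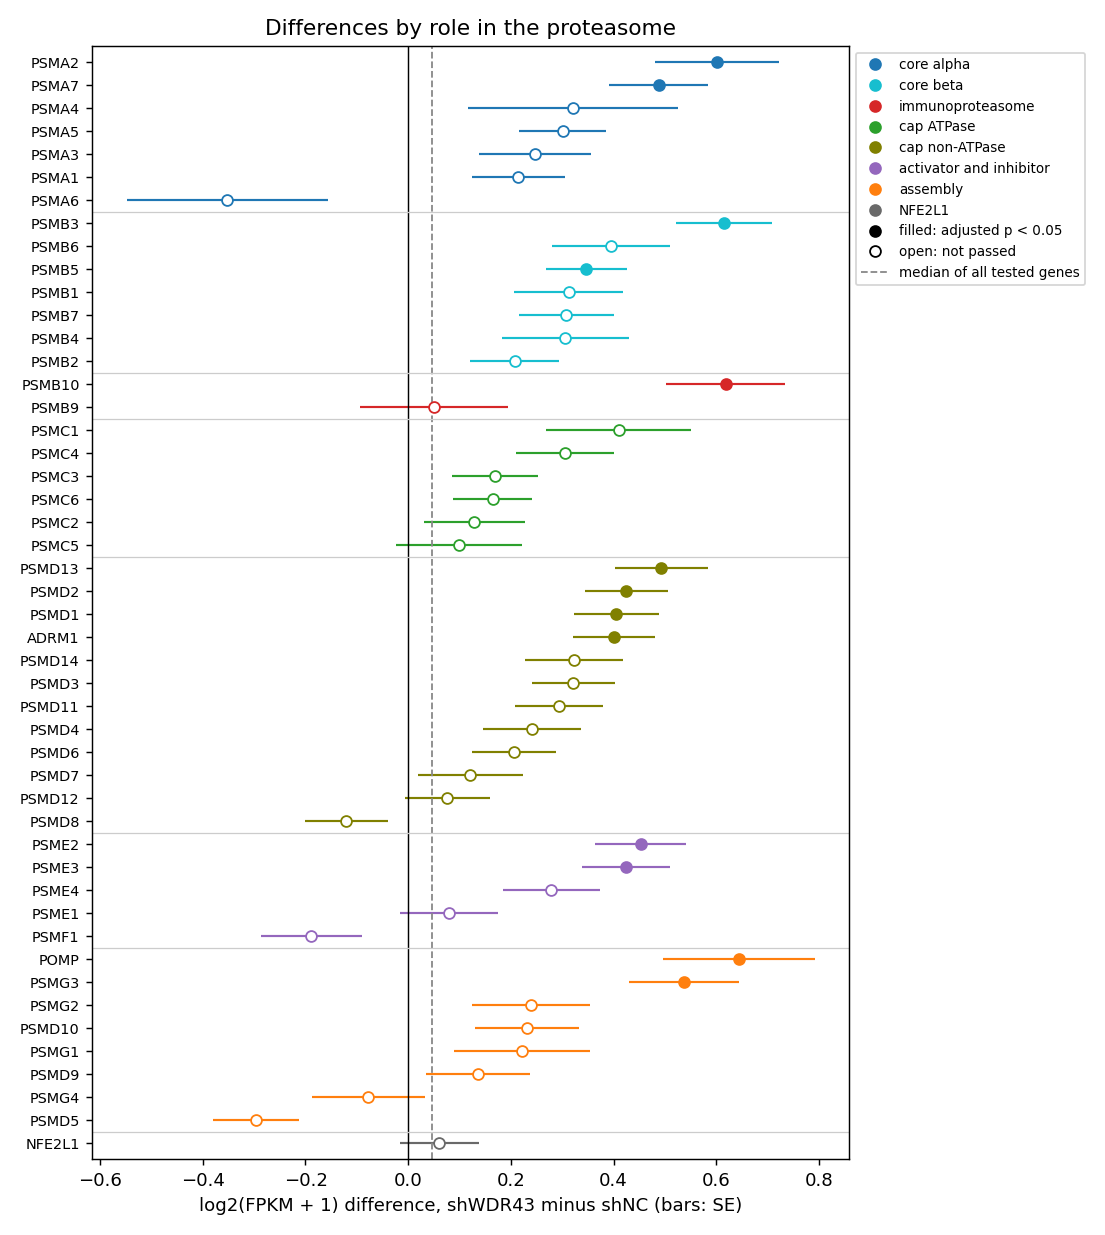
Difference of log2(FPKM + 1), shWDR43 minus shNC, for the 48 tested proteasome genes, ordered by role and then by size, with bars for the SE of the limma fit, filled points for adjusted p below 0.05 and a dashed line at the median of all tested genes, 0.05. Points right of 0 prevail in each role, 13 are filled, and PSMA6, PSMD8, PSMF1, PSMG4 and PSMD5 lie left of 0.

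Activators cap the core in place of the ATPase-bearing cap, and PSMF1 encodes a protein that inhibits the core in vitro. PSME2 makes a ring together with PSME1 that interferon induces. It was at 46.2 and 42.7 FPKM in shWDR43 and at 30.6 and 33.8 FPKM in shNC and rose by 0.45 ± 0.09 (adjusted p = 0.0343). Its partner PSME1 was at 79.0 and 74.0 FPKM in shWDR43 and at 67.5 and 77.4 FPKM in shNC, with overlapping groups and a log2 difference of 0.08 ± 0.10 (adjusted p = 0.635), which was -0.02 without shNC replicate 1. The partners of this ring were thus at unequal levels, and their ratio was not tested.

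PSME3, the subunit of a nuclear activator, was at 18.5 and 18.3 FPKM in shWDR43 and at 13.9 and 13.1 FPKM in shNC and rose by 0.42 ± 0.09 (adjusted p = 0.0347). PSME4, a large nuclear activator built of a single chain, was at 19.8 and 21.5 FPKM in shWDR43 and at 17.8 and 15.9 FPKM in shNC, which did not overlap but did not pass (log2 difference 0.28 ± 0.09, adjusted p = 0.115). PSMF1 went the other way in level, at 8.49 and 9.57 FPKM in shWDR43 and at 10.8 and 10.1 FPKM in shNC, and did not pass (log2 difference -0.19 ± 0.10, adjusted p = 0.268). Of the 5 activator and inhibitor genes 2 rose and 0 fell, against 4.79% and 1.47% of all tested genes.

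Assembly chaperones guide the subunits into place and then leave or are degraded. POMP, the maturation factor on which the beta ring is built (chromosome 13, 28659104 to 28678925), was at 43.1 and 36.6 FPKM in shWDR43 and at 21.4 and 29.3 FPKM in shNC. It rose by 0.64 ± 0.15 on the log2 scale, with a wide spread and an adjusted p of 0.0484. No other of the 48 genes had a larger log2 difference with a pseudocount of 1, but with a pseudocount of 0.1 POMP was at 0.66 and PSMB10 at 0.85. Leaving out shNC replicate 2 gave POMP 0.86, and leaving out shNC replicate 1 gave 0.43. PSMG3, which with PSMG4 forms a chaperone pair for the alpha ring, was at 10.9 and 9.59 FPKM in shWDR43 and at 6.34 and 7.15 FPKM in shNC and rose by 0.54 ± 0.11 (adjusted p = 0.0345). PSMG4 had a log2 difference of -0.08 (adjusted p = 0.696).

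The chaperones PSMD5, PSMD9 and PSMD10 act on the ATPase ring. PSMD5 was at 13.7 and 13.3 FPKM in shWDR43 and at 16.6 and 17.1 FPKM in shNC, with close replicates, no overlap and a log2 difference of -0.30 ± 0.08 short of the threshold (adjusted p = 0.0770), and it was called lower without shNC replicate 1, as were 4.06% of all tested genes. PSMD9 and PSMD10 had positive log2 differences of 0.14 and 0.23 that did not pass. Of 8 assembly genes 2 rose and 0 fell, against 4.79% and 1.47% of all tested genes, and the median log2 difference was 0.23. PSMG4 and the PSMD chaperones are named here after their values were seen.

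NFE2L1 itself did not pass. It was at 39.2 and 39.4 FPKM in shWDR43 and at 37.2 and 38.1 FPKM in shNC, a log2 difference of 0.06 ± 0.08 (adjusted p = 0.654), which was near 0 and negative under either scaling. NFE2L1 acts through antioxidant response elements, and RefSeq sequences of the GRCh38.p14 build were searched for their core, TGACNNNGC, on both strands in the 250 bases before each gene's start in RefSeq. The table held 45 of the 51 proteasome symbols, and 12 of the 45 windows (26.7%) held the core, against 11.0% of 27305 windows of genes of any type. The CCAAT box, with the letters CCAAT on either strand, was in 20 of the 45 (44.4%) and in 33.0% of all windows. The core was present in 3 of 11 genes that rose (PSMB3, ADRM1 and PSME2) and in 9 of 32 that did not pass or were not tested. These matches describe letters only. Of the genes with a core, PSMB3 and ADRM1, which rose, and PSMD3, just outside the threshold, are shown, as the plus strand of chr17:38752491-38752720, chr20:62302646-62302875 and chr17:39980557-39980786. Each window is 230 bases long, ends 20 bases before the RefSeq start, overlaps no GENCODE exon and has the core in capitals. In GENCODE release 29 ADRM1 begins further upstream, at 62302093, so its window lies inside the GENCODE gene.
PSMB3: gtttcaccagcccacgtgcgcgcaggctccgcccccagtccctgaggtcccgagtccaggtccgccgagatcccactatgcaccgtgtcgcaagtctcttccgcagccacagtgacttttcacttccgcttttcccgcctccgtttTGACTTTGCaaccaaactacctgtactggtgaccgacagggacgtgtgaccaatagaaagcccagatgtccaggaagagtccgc
ADRM1: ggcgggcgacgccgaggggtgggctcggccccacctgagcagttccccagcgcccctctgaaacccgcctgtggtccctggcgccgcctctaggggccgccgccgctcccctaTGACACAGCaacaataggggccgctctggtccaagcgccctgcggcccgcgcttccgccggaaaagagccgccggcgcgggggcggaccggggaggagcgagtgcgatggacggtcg
PSMD3: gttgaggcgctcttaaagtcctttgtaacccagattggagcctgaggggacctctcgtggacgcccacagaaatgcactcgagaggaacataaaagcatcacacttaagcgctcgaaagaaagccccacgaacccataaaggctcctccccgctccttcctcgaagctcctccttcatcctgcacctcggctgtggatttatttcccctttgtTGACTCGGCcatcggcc

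Genes around NFE2L1 and the proteasome were counted in the same way. Among 16 genes that process NFE2L1, bind it or are related to it, 1 rose and 1 fell, and over all lists 1 of 50 rose and 1 fell, numbers near the 4.79% and 1.47% of all tested genes. MAFG, a small MAF partner of NFE2L1 on DNA, was at 13.2 and 11.8 FPKM in shWDR43 and at 9.14 and 8.78 FPKM in shNC (log2 difference 0.44 ± 0.10, adjusted p = 0.0439). NFE2L2, the related factor of the oxidative stress response, was at 48.2 and 47.4 FPKM in shWDR43 and at 61.2 and 64.9 FPKM in shNC (log2 difference -0.39 ± 0.08, adjusted p = 0.0354). The groups of both genes did not overlap. MAFG was not called without shWDR43 replicate 1 or 2, nor was NFE2L2. After either scaling MAFG was not called, and NFE2L2 was among the genes called lower. Neither was called with the replicate number as a block.

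Proteasome-bound and shuttle factors had 0 of 15 called with limma and 6 at an unadjusted p below 0.05, 4 of them higher. Over all tested genes 17.8% were higher and 8.63% lower at that p. A positive log2 difference was seen in 10 of the 15, against 58.0% of all tested genes. TXNL1, a thioredoxin-like protein of the cap, was at 12.0 and 13.5 FPKM in shWDR43 and at 17.5 and 16.2 FPKM in shNC (adjusted p = 0.0602). ZFAND2A, an arsenite-induced cap partner, was at 5.10 and 5.26 FPKM in shWDR43 and at 6.73 and 9.01 FPKM in shNC (adjusted p = 0.0657). Both had lower levels in each shWDR43 library than in either shNC library. SEM1, a small subunit of the cap, and UBE3C, a ubiquitin ligase bound to the proteasome, were on the other side, with log2 differences of 0.32 (adjusted p = 0.0662) and 0.37 (adjusted p = 0.0799), and are named after their values were seen.

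Ubiquitin and its activating enzymes had 0 of 6 called and 2 higher at an unadjusted p below 0.05, against 17.8% of all tested genes. UBA1, the main activating enzyme, was at 99.5 and 101 FPKM in shWDR43 and at 82.7 and 87.3 FPKM in shNC (adjusted p = 0.123), and RPS27A, a ubiquitin fusion gene, had a log2 difference of 0.32 (adjusted p = 0.184). Interferon signalling and antigen loading genes had 0 of 13 called and 4 at an unadjusted p below 0.05, all of them higher, against 17.8% of all tested genes. TAP1, a peptide transporter gene next to PSMB9, was at 11.3 and 11.8 FPKM in shWDR43 and at 7.39 and 9.24 FPKM in shNC (log2 difference 0.44, adjusted p = 0.0644), and TAP2 had a log2 difference of 0.38 (adjusted p = 0.0759). IRF9, a factor of interferon signalling with the largest absolute difference of this list, was at 4.40 and 4.27 FPKM in shWDR43 and at 9.53 and 4.67 FPKM in shNC, a log2 difference of -0.54 (adjusted p = 0.219) with shNC replicate 1 far above the rest. It is named after its values were seen. Over the 50 tested genes of these lists the median log2 difference was 0.13.

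Proteasome transcripts are short, and length moved with the difference between the controls. The 48 genes had a median transcript length of 1554 bases in GENCODE release 29, against 2729.8 bases over 13234 tested genes with a length. Across those genes, length had a Spearman correlation of -0.34 with the log2 difference of shNC replicate 2 minus shNC replicate 1, and of -0.03 with that of shWDR43 minus shNC. In the shortest of 4 length classes, the median was 0.10 between the shNC libraries and 0.05 between the groups, and 5.65% of genes were called higher. Of the 27 proteasome genes in that class 10 rose, with a median log2 difference of 0.31. When each library was centred within 20 bins of transcript length, 13 of 48 proteasome genes rose and 1, PSMD5, fell, with 5.6% of all tested genes called higher and 4.54% lower. Of those 13, 12 were among the 13 called without the centring, and PSMB5 was not (adjusted p = 0.0557). The median of the 48 genes was 0.21 after centring.

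**Figure D4:**
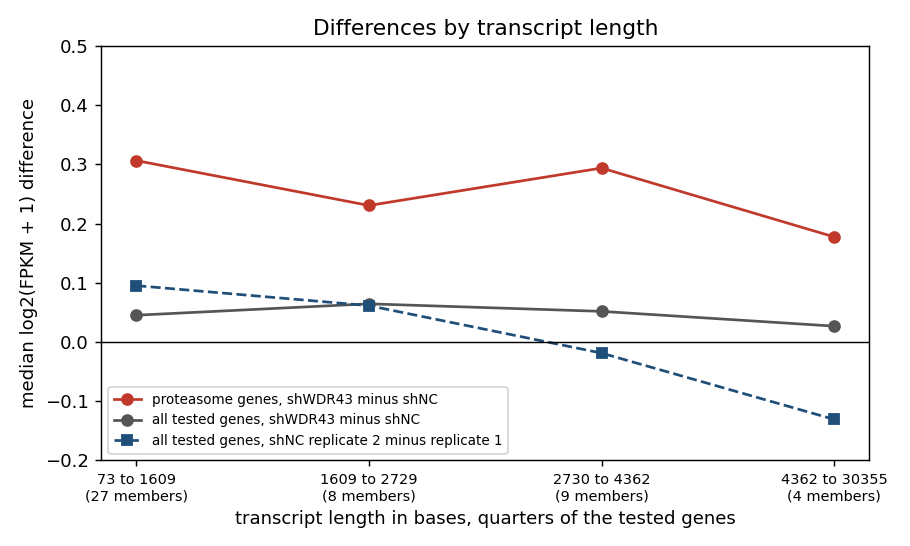
Median difference of log2(FPKM + 1) in 4 classes of transcript length in bases with equal numbers of genes, for proteasome genes (red) and all tested genes (grey), shWDR43 minus shNC, and for all tested genes between the control libraries, shNC replicate 2 minus replicate 1 (blue, dashed). The red line lies above the grey line in each class, and the dashed line is at 0.10 in the shortest class and at -0.13 in the longest.

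Some of these genes overlap others in the annotation. Of the 13 genes that rose, 5 overlap another gene at 1 FPKM or more on the opposite strand: ADRM1 (LAMA5), PSMA2 (MRPL32), PSMD13 (SIRT3), PSME2 (RNF31) and PSME3 (BECN1). Without a stated strand setting the levels of these 5 are uncertain. The other 8 have no such neighbour. Processed pseudogenes of proteasome genes were at low levels, with a copy at 1 FPKM or more for PSMD10 alone, at a sum of 1.73 FPKM.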

How the data were processed

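Per the submitters' processing notes, the tools named were edgeR, RSEM, HISAT2, FastQC, Trimmomatic and CASAVA 1.8, and the build GRCh38, with no role or order. Neither the annotation release nor strandedness is given in the sources used here. Per the labels' protocols, an Illumina TruSeq RNA kit was used on 1 ug of total RNA per library. The deposited values, 1 per gene and library, were read as FPKM from their range and sums, and TPM over part of the genes cannot be told apart from this. Whole-read steps were searched in low values, but no window of ratios between libraries held over 1.01% of genes. Reads were therefore not recovered, the depth is unknown and no interval that needs counts is given. A blank entry (1 per library) was left out. The 29286 gene IDs matched 29170 symbols and 28468 positions of GENCODE release 29.

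Values were tested as log2(FPKM + 1), a scale that understates changes of low genes, with limma 3.58.1 in R 4.3.3, for genes that reached 1 FPKM in 2 or more libraries. The group was the only term, and variances were moderated by empirical Bayes with trend and robust options. Two-sided p-values received Benjamini-Hochberg adjustment across 13303 genes, and the fit was tested on simulated data. Means are of 2 libraries a group, and no set test was made. Values were given for every called proteasome gene, all immune, activator and inhibitor genes, NFE2L1, and, per role, the gene with the largest absolute difference and that with the highest mean. The members and lists were chosen with earlier results of these data known. Median-ratio factors used genes at 1 FPKM or more in all 4 libraries. Transcript length is the median over principal transcripts of a gene, or over all its transcripts where none is marked as principal. Length centring subtracted, in each bin and library, the median deviation from the gene means, estimated from these same libraries. Figures were made with Python 3.11.15 and matplotlib 3.10.9.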

Additional observations from a re-analysis of the deposited data

How the results depend on the processing

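All 13 proteasome genes that rose kept a positive log2 difference in each alternative in which they were tested, but the number called changed, and the cause was not tested. Over all genes 833 were called (637 higher and 196 lower), against 17 with no filter, 523 after median-ratio scaling and between 391 (without shWDR43 replicate 1) and 2610 (without shNC replicate 2) when a library was left out, where a lone library is assumed to vary like the other group. Proteasome genes called higher were 13, against 0 with no filter, 2 after median-ratio scaling, 4 after upper-quartile scaling and 3 to 30 when a library was left out. Proteasome genes called lower were 0, against 0 to 1 when a library was left out. Replicate numbers are shared between the groups, but no label says that they pair samples. Deviations of same-numbered libraries from their group means had a correlation of -0.147. With the replicate number as a block, 6 proteasome genes were called higher. A crossed pairing, chosen after seeing the data, called 1954 genes, with 24 proteasome genes higher and 1 lower. Length centring, also chosen after seeing the data, called 1349 genes, with 13 proteasome genes higher and 1 lower.

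Pathway genes called higher were 1, against 0 with no filter, after either scaling and with the replicate block, 4 at a filter of 5 FPKM, 9 with the crossed pairing and 0 to 10 when a library was left out. Pathway genes called lower were 1, against 0 with no filter or the replicate block, 3 at a filter of 5 FPKM, 2 after either scaling, 3 with the crossed pairing, 6 after length centring and 0 to 4 when a library was left out.

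After median-ratio scaling the median log2 difference was 0.22 for activators and inhibitor, 0.25 for non-ATPase cap subunits and -0.0013 for NFE2L1. When a library was left out it was 0.20 to 0.36 for activators and inhibitor, 0.11 to 0.32 for assembly genes, 0.14 to 0.26 for ATPases, 0.15 to 0.38 for the alpha ring and 0.21 to 0.44 for the beta ring, and the ratio of the summed level was 1.13 to 1.29.

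Among the 48 proteasome genes the sign turned, with none past the threshold, for PSMA4 (-0.032 without shNC replicate 1), PSMD7 (-0.012 without shNC replicate 1), PSME1 (-0.016 without shNC replicate 1), PSMC5 (-0.084 without shNC replicate 1 and -0.011 after length centring), PSMB9 (-0.0026 after upper-quartile scaling, -0.098 without shWDR43 replicate 1 and -0.057 without shNC replicate 1) and NFE2L1 (-0.0013 after median-ratio and -0.0085 after upper-quartile scaling). Of 284 values over 22 named genes, 207 kept direction and side of the threshold, 61 lost the call, 8 gained one and 8 turned sign. Without shNC replicate 2, the differences of PSMC5 and PSME1 were 0.28, which passed, and 0.18, which did not. The unknown read depth leaves the counting error of low genes such as PSMB8 unmeasured.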
